A study of Mus musculus with 3 samples.

Results

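The transcripts of 10 tight junction genes were followed in primary hepatocytes of C57BL/6 mice given the bile acid TUDCA (tauroursodeoxycholic acid) or the solvent DMSO. They were 8 claudin genes (Cldn1, Cldn2, Cldn3, Cldn4, Cldn6, Cldn7, Cldn12 and Cldn14), the occludin gene Ocln and Tjp1, which encodes the scaffold ZO-1. The genes were chosen by symbol, and all 10 were found among the 37620 gene identifiers of the deposited tables. The data were RNA-seq values of 3 libraries, TUDCA replicates 1 and 2 (100 mM and 24 h, as labelled) and 1 DMSO library, for which no time is labelled, so that time and TUDCA cannot be told apart. All cultures were labelled passage 1 and were grown on gelatin with serum and insulin. The series describes 2 independent experiments but does not assign libraries to them, so it is not known which TUDCA library, if any, shares an experiment with DMSO. The labels do not say whether the TUDCA libraries came from separate animals, and the dose is given as labelled.

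Tight junctions seal the space between neighbouring epithelial cells. In the liver they close off the bile canaliculus, the channel between hepatocytes that receives bile, from the blood side. Claudins are membrane proteins whose extracellular loops meet those of the next cell, and which claudins a cell makes sets whether the seal is tight or lets selected ions and water pass. Occludin is another membrane protein of the strand, and ZO-1 ties the strand to the actin cytoskeleton.

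The claudins did not move as a block. With TUDCA the pore-forming claudin Cldn2 rose to 2.25 times its DMSO level and Cldn4, a claudin of many epithelia, fell to 0.508 of it. These were the 2 genes of the set that passed the test. Cldn1 stood higher and Cldn3, the most abundant claudin, stood lower in both TUDCA libraries, and neither passed. Ocln, Tjp1, Cldn12 and Cldn14 differed from DMSO by less than 0.45 on the log2 scale in each TUDCA library. Cldn6 and Cldn7 were close to the limit of detection.

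Levels are in RPKM, reads scaled to the length of a gene and to the size of its library, which was 9757547 and 10575699 reads for TUDCA replicates 1 and 2 and 10774289 reads for DMSO. Differences are on the log2(RPKM + 1) scale, TUDCA minus DMSO. The test was limma over the 11300 genes that averaged 1 RPKM or more, with adjustment over all of them and a threshold of 0.05. The only replicated group was TUDCA, with 2 libraries, so the test assumed that DMSO varies like TUDCA. It also gave each gene the spread common to its expression level, an SD of 0.160 to 0.238 for the genes described here. Of all genes tested, 2.65% passed, 1.77% higher and 0.876% lower with TUDCA. Of the 10 genes, 8 were tested, of which 1 passed as higher and 1 as lower.

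Cldn2 forms channels for cations and water and is needed in mice for normal bile flow. Its level was 49.2 and 43.6 RPKM in the TUDCA libraries, against 20.6 RPKM in the DMSO library. Both TUDCA libraries lay above DMSO, and they differed from each other by 0.17 on the log2 scale. The differences from DMSO were 1.22 and 1.05, with a mean of 1.13 ± 0.23 (SE, n = 2 against 1, limma adjusted p = 1.4e-04). Behind these values stood at least 655 and 629 reads with TUDCA and 303 with DMSO. The exact Poisson intervals at 95%, which cover counting error only, ran from 45.5 to 53.2 and from 40.3 to 47.2 RPKM with TUDCA, and from 18.4 to 23.1 RPKM with DMSO, and the DMSO interval overlapped neither of the others. Cldn2 was also the 1 gene of the set whose log2 difference reached 1 in both TUDCA libraries with the same sign, a size that 0.77% of all genes reached upwards and 0.283% downwards.

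Cldn1 is a barrier-forming claudin whose loss in people causes a disease of the bile ducts and skin. It had 8.77 and 6.26 RPKM with TUDCA, against 3.77 RPKM with DMSO. Both TUDCA libraries were above DMSO, replicate 1 further than replicate 2. The mean difference was 0.82 ± 0.29 (SE, n = 2 against 1) and did not pass (limma unadjusted p = 0.00493, adjusted p = 0.123). The differences of the single libraries were 1.03 and 0.61. Among all genes tested, both TUDCA libraries lay above DMSO for 40.5% and below it for 30.4%, so a shared direction is common, and both differences use the same DMSO library.

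Cldn4 is a claudin of ducts and other epithelia. It had 57.1 and 51.8 RPKM with TUDCA, against 107.3 RPKM with DMSO. The TUDCA libraries lay close together, 0.14 apart on the log2 scale, and both lay below DMSO. The differences from DMSO were -0.90 and -1.04, with a mean of -0.97 ± 0.22 (SE, n = 2 against 1, limma adjusted p = 8.0e-04). At least 1008 and 991 reads stood behind the TUDCA values and 2091 behind the DMSO value. The calls of Cldn2 and Cldn4 were both lost when genes under 1 RPKM were left in the fit (19146 genes, adjusted p = 0.502 for each), a setting at which limma called no gene, with 1696 genes at an unadjusted p below 0.05. They held in the other 8 settings tested.

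Cldn3, a barrier-forming claudin and by far the most abundant in each library, had 410.4 and 518.8 RPKM with TUDCA, against 692.1 RPKM with DMSO. Both TUDCA libraries were below DMSO, and replicate 1 was the lower of them. The mean difference was -0.58 ± 0.20 (SE, n = 2 against 1) and did not pass (limma unadjusted p = 0.00298, adjusted p = 0.0918). It passed with quantile normalization (adjusted p = 0.0284, the lowest of 9 alternatives, which reached 0.613). A gene on the other strand, Wbscr25, overlaps Cldn3 and had 0.0664 and 0.0613 RPKM with TUDCA and 0 with DMSO. Whether reads were counted by strand is not known from the labels, but that gene's level was far below that of Cldn3.

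**Figure D1:**
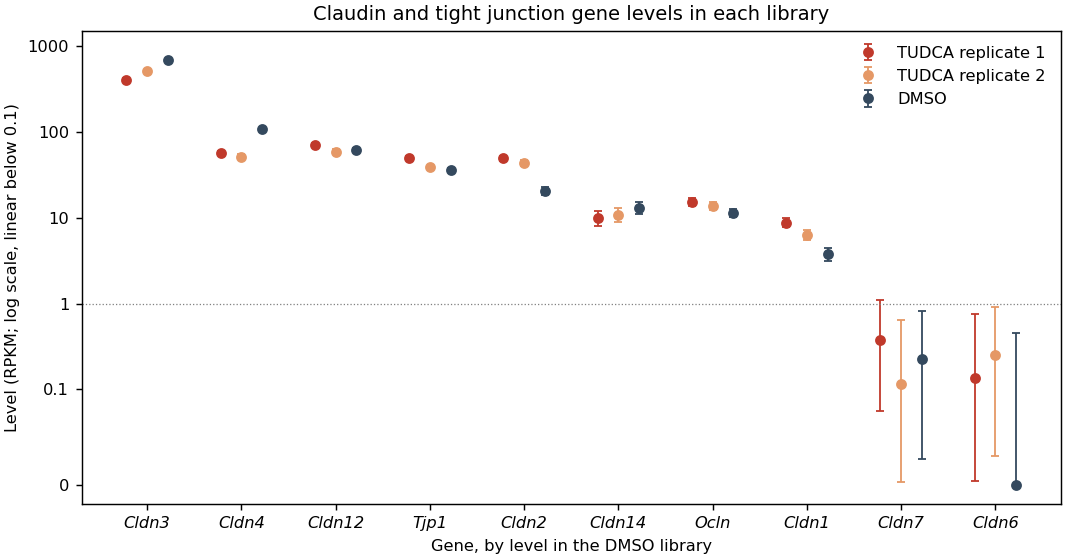
RPKM of each of the 10 genes in TUDCA replicate 1, TUDCA replicate 2 and DMSO, on a log axis that is linear below 0.1, with exact Poisson intervals at 95% from the smallest whole reads. Cldn3 leads in all 3 libraries at 410.4 to 692.1 RPKM, both TUDCA points of Cldn2 and Cldn1 lie above DMSO and those of Cldn4 and Cldn3 below it, and the intervals of Cldn7 and Cldn6 overlap in all libraries.

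The sequences before the transcription starts of these 4 genes are shown because Cldn2 and Cldn1 stood higher and Cldn4 and Cldn3 lower in both TUDCA libraries. Each is the stretch of 250 bases before the start in RefSeq (GRCm38.p6), which lists 1 start for each of the 4 genes, read 5′ to 3′ on the strand of the gene. The windows are chrX:139800558-139800807 (plus strand) for Cldn2, chr16:26371840-26372089 (minus) for Cldn1, chr5:134946935-134947184 (minus) for Cldn4 and chr5:134985964-134986213 (plus) for Cldn3. Capitals mark matches on either strand to the letters of 3 motifs, which did not overlap each other here. The AP-1 motif was searched as TGANTCA. The E-box bound by Snail repressors was searched as CAGGTG. The TATA box was searched as TATAAA. A motif bound by HNF4, CAAAGTCCA, was searched as well.
Cldn2: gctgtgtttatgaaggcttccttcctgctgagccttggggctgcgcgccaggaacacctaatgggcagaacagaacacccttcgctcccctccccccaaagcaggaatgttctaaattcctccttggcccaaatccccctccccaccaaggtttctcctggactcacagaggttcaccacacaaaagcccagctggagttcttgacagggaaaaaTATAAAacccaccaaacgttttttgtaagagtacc
Cldn1: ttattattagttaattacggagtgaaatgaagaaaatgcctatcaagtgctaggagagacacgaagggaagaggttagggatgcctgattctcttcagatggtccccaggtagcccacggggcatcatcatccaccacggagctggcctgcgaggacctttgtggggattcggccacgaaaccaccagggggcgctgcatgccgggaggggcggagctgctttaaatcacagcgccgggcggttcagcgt
Cldn4: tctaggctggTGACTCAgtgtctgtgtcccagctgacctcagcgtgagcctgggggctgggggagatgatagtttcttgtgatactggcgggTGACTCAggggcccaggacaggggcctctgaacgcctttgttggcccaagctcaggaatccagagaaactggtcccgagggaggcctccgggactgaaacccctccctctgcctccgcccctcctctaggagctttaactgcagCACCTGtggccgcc
Cldn3: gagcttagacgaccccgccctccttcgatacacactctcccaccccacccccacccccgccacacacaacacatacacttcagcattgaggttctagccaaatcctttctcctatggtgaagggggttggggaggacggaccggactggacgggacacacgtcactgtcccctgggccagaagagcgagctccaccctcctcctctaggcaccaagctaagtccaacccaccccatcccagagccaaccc

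The Cldn2 window held TATAAA, starting 35 bases before the start, as did 12.4% of the 32851 promoter windows of this length in the table. The Cldn4 window held TGANTCA at 240 and at 158 bases before the start and CAGGTG, read on the other strand as CACCTG, at 14 bases. At least 1 match to TGANTCA was found in 6.75% of all windows, 2 or more in 0.338%, and CAGGTG in 17.2%. None of the 4 motifs was found in the windows of Cldn1 and Cldn3. The HNF4 letters, present in 0.384% of all windows, were in none of the 4 shown. These are matches of letters in a short window, and no binding was measured. The motifs were chosen with the sequences in view, so the shares do not measure how unusual a match is.

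Cldn12, a claudin made in many tissues, had 70.9 and 59.4 RPKM with TUDCA, against 61.4 RPKM with DMSO, so that the DMSO value lay between the TUDCA values (0.08 ± 0.22, SE, limma adjusted p = 0.970). Cldn14, which restricts the passage of cations and is needed for hearing in people, had 9.90 and 10.8 RPKM with TUDCA, against 13.1 RPKM with DMSO. Both TUDCA values were below DMSO, and the difference of -0.31 ± 0.27 (SE) did not pass (limma adjusted p = 0.8). Ocln had 15.3 and 13.7 RPKM with TUDCA, against 11.4 RPKM with DMSO (0.32 ± 0.27, SE, limma adjusted p = 0.787). Tjp1 had 49.8 and 38.7 RPKM with TUDCA, against 36.3 RPKM with DMSO (0.27 ± 0.23, SE, limma adjusted p = 0.797). For Ocln and Tjp1 both TUDCA libraries were above DMSO, with the TUDCA libraries 0.15 and 0.36 apart on the log2 scale.

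**Figure D2:**
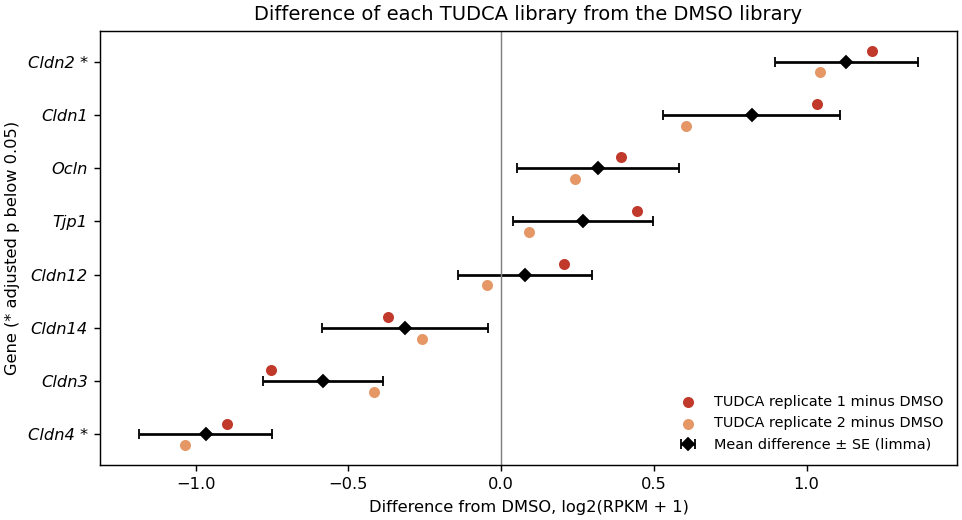
Difference of each TUDCA library from DMSO on the log2(RPKM + 1) scale for the 8 genes tested, with TUDCA replicate 1 and TUDCA replicate 2 as separate points and the mean with its limma SE as a diamond. Cldn2 at 1.13 and Cldn4 at -0.97 passed the test, and the points of Cldn12 lie on either side of 0.

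Cldn7, found along the lateral membranes of gut and kidney epithelia, had 0.373 and 0.115 RPKM with TUDCA, against 0.225 RPKM with DMSO. As the smallest whole numbers that fit, these were 3 and 1 reads with TUDCA and 2 with DMSO. Cldn6, a claudin of embryonic epithelia, had 0.136 and 0.251 RPKM with TUDCA, which are 1 and 2 reads, and no read with DMSO, a count that allows 0.370 RPKM at 3 reads, or 0.455 RPKM by the two-sided Poisson interval that is plotted. A difference of either gene was not detectable at this depth.

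Of 32 claudin identifiers in the tables, 17 were at 0 in all 3 libraries, and the 6 claudins tested above were the ones that averaged 1 RPKM or more. Among the rest, Cldn5, the claudin of blood vessel endothelium, had 1.02 and 0.401 RPKM with TUDCA, against 0.591 RPKM with DMSO. Cldn34c1, which has close copies between which reads can be split, had 0.565 and 0.217 RPKM with TUDCA, against 0.341 RPKM with DMSO. Cldn15, a pore-forming claudin of the gut, had 0.0704 and 0.195 RPKM with TUDCA, against 0.191 RPKM with DMSO. Cldn23 had 0.111 and 0.256 RPKM with TUDCA, against 0.251 RPKM with DMSO. For each of these 4 genes the DMSO value lay between the TUDCA values.

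The order of the levels differed in the middle of the range. In both TUDCA libraries it began with Cldn3, Cldn12 and Cldn4, and in the DMSO library with Cldn3, Cldn4 and Cldn12. The TUDCA values of Cldn12 (70.9 and 59.4 RPKM) lay above those of Cldn4 (57.1 and 51.8 RPKM) without overlap but by less than the spread within Cldn12. Cldn2 and Tjp1 came next with TUDCA and overlapped (49.2 and 43.6 against 49.8 and 38.7 RPKM), while with DMSO Cldn2 had 0.568 of the level of Tjp1. Ocln stood above Cldn14 with TUDCA (15.3 and 13.7 against 9.90 and 10.8 RPKM). Their Poisson intervals were apart in TUDCA replicate 1 only. They overlapped in TUDCA replicate 2 (12.3 to 15.2 RPKM for Ocln and 8.92 to 12.9 RPKM for Cldn14). With DMSO they overlapped as well (10.1 to 12.8 RPKM for Ocln and 11.1 to 15.4 RPKM for Cldn14). Cldn1 followed in all 3 libraries.

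The ratio of Cldn2 to Cldn4 was 0.862 and 0.842 in the TUDCA libraries, against 0.192 in the DMSO library. It joins the gene called higher and the gene called lower, so its shift follows from these calls and adds no support to them. The ratio of Ocln to Tjp1 was 0.307 and 0.354 with TUDCA, with the DMSO value of 0.314 between them. A ratio within a library does not depend on how the library is scaled. The summed level of all claudins was 608.8 and 692.2 RPKM with TUDCA, against 900.0 RPKM with DMSO. Cldn3 made up 67.4% and 75.0% of this sum with TUDCA, against 76.9% with DMSO. The share of Cldn2 was 8.09% and 6.30% with TUDCA, against 2.29% with DMSO, and that of Cldn4 was 9.38% and 7.48% with TUDCA, against 11.9% with DMSO. These shares were not tested, and the protein was not measured.

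**Figure D3:**
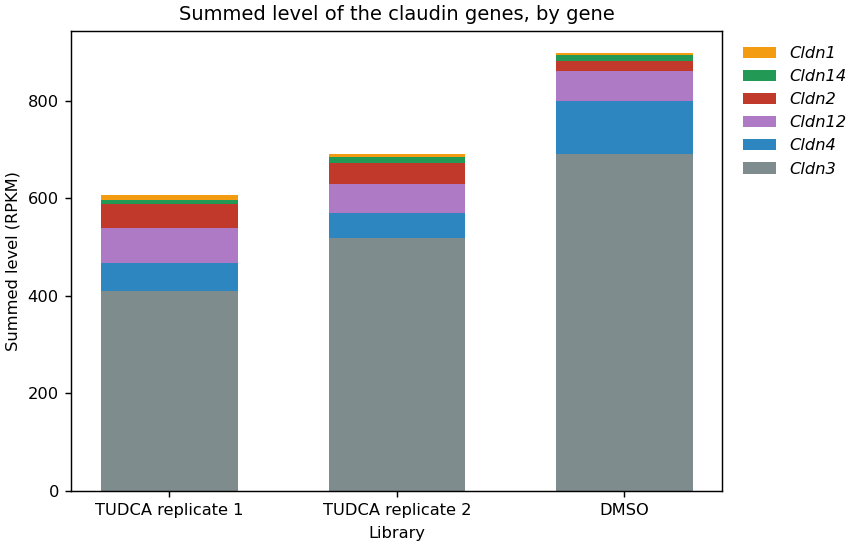
Summed RPKM of the 6 claudin genes that averaged 1 RPKM or more in TUDCA replicate 1, TUDCA replicate 2 and DMSO, with 1 coloured segment per gene. The columns and their Cldn3 and Cldn4 segments are lower with TUDCA, while the Cldn2 segment is 49.2 and 43.6 RPKM with TUDCA, against 20.6 RPKM with DMSO.

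The labelled cell type was checked against markers. Of 13 hepatocyte marker entries 12 were matched, and albumin (Alb) had 7177 and 6111 RPKM with TUDCA, against 5771 RPKM with DMSO. Of these 12 genes, 1 was called higher (Fgb, a fibrinogen chain, 2530 and 1885 RPKM with TUDCA, against 914.3 RPKM with DMSO, limma adjusted p = 4.3e-08) and none lower. Among all genes tested, 1.77% were called higher and 0.876% lower. Of the enzymes of mature hepatocytes on the list, Cps1 had 5.79 and 6.08 RPKM with TUDCA, against 2.62 RPKM with DMSO, and Tat had 8.50 and 9.23 RPKM with TUDCA, against 6.81 RPKM with DMSO. Cps1 was not called (limma adjusted p = 0.0587). It was called with a pseudocount of 0.1, without the variance trend, with robust estimation and by voom (adjusted p = 0.0448, 0.0342, 0.0441 and 0.00674). It was not called with TPM, quantile normalization or median centring (adjusted p = 0.0762, 0.148 and 0.0741). In bulk RNA, fewer cells of a type and less RNA per cell cannot be told apart, which bears on Cldn4, a gene also made in bile ducts. Of 10 cholangiocyte markers, 5 were tested, and 1 was called higher (Spp1, 767.5 and 578.2 RPKM with TUDCA, against 387.5 RPKM with DMSO) and none lower. Their summed level was 823.7 and 649.5 RPKM with TUDCA, against 438.6 RPKM with DMSO, most of it Spp1, while Cftr was at 0 in all libraries and Krt7 and Epcam were under 0.4 RPKM. Of 10 keratinocyte markers, 5 were tested and 3 were called lower (Krt5, Lor and Sprr1a), against 0.876% of all genes tested. The summed level of the 10 keratinocyte markers was 5613 and 5647 RPKM with TUDCA, against 8919 RPKM with DMSO, nearly all of it Sprr1a. Krt14, Krt1, Krt6a and Trp63 were at 0 in all libraries. Spp1 was not called with median centring or without the variance trend (adjusted p = 0.136 and 0.134), and Sprr1a was called neither in these (adjusted p = 0.156 and 0.289) nor with the filter at 5 RPKM (adjusted p = 0.0563). Lor was not called after rescaling to TPM (adjusted p = 0.0716), and without the filter none of these markers was called. The part of these cell types in the difference of Cldn4 was not tested. The summed levels of endothelial markers were 11.1 and 9.43 RPKM with TUDCA, against 8.84 RPKM with DMSO. Those of stellate cell and fibroblast markers were 13.3 and 11.6 RPKM, against 15.5 RPKM. Those of macrophage markers were 272.5 and 289.9 RPKM, against 307.1 RPKM, most of it Cd68 (154.3 and 169.4 RPKM, against 170.4 RPKM). Of 10 markers in each of these lists, 3, 6 and 9 were tested, and none was called.

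Other proteins of the tight junction were read from lists of its membrane partners and scaffolds. Of 31 such genes beside Ocln and Tjp1, 24 were tested and limma called none (lowest adjusted p = 0.0939, 4 with an unadjusted p below 0.05, none called by voom). Of all genes tested, 2.65% were called. Both TUDCA libraries lay above DMSO for 15 of the 24 genes and below it for 7, against 40.5% and 30.4% of all genes tested. Their median difference was 0.20, against 0.04 over all genes tested. Marveld2 (tricellulin), which seals the corners where several cells meet, had 16.5 and 15.8 RPKM with TUDCA, against 9.47 RPKM with DMSO. Ildr2, a protein of the same corners, had 19.2 and 27.3 RPKM with TUDCA, against 14.1 RPKM with DMSO, whereas its relative Lsr had 115.2 and 141.3 RPKM with TUDCA, against 156.2 RPKM with DMSO. Esam, an adhesion molecule of endothelium, had 1.78 and 2.19 RPKM with TUDCA, against 1.18 RPKM with DMSO. Among the scaffolds, Tjp3 (ZO-3) had 9.79 and 11.6 RPKM with TUDCA, against 5.55 RPKM with DMSO. Ybx3, a Y-box protein that binds ZO-1, had 197.0 and 195.3 RPKM with TUDCA, against 297.2 RPKM with DMSO. Patj had 15.9 and 17.6 RPKM with TUDCA, against 12.03 RPKM with DMSO, and Magi3 had 9.07 and 5.18 RPKM with TUDCA, against 4.64 RPKM with DMSO.

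The lists of the neighbouring junctions were read in the same way, where 2.65% of all genes tested were called. Of 15 genes of the cell polarity complexes and 12 of adherens junctions limma called none, with none at an unadjusted p below 0.05 and none called by voom (median differences 0.01 and 0.14). Their widest differences were those of Pard6a (3.63 and 4.32 RPKM with TUDCA, against 5.49 RPKM with DMSO) and Plekha7 (6.77 and 6.05 RPKM with TUDCA, against 4.27 RPKM with DMSO). Of 7 desmosome genes tested, Ppl, which encodes the plakin periplakin, rose, with 8.91 and 11.5 RPKM with TUDCA, against 2.28 RPKM with DMSO (1.76 ± 0.29, SE, limma adjusted p = 2.7e-07), and 6 were not called. Of 4 gap junction genes tested, Gjb2 (connexin 26) had 97.9 and 63.0 RPKM with TUDCA, against 47.8 RPKM with DMSO, and was called higher (limma adjusted p = 0.0476). Voom, quantile normalization, median centring, robust estimation and the fit without the variance trend did not call it (adjusted p = 0.054, 0.112, 0.221, 0.0516 and 0.224). Without the filter neither Ppl nor Gjb2 was called (adjusted p = 0.517 and 0.662). Gjb1 (connexin 32), the main hepatocyte connexin, had 141.9 and 122.6 RPKM with TUDCA, against 95.3 RPKM with DMSO, and was not called.

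**Figure D4:**
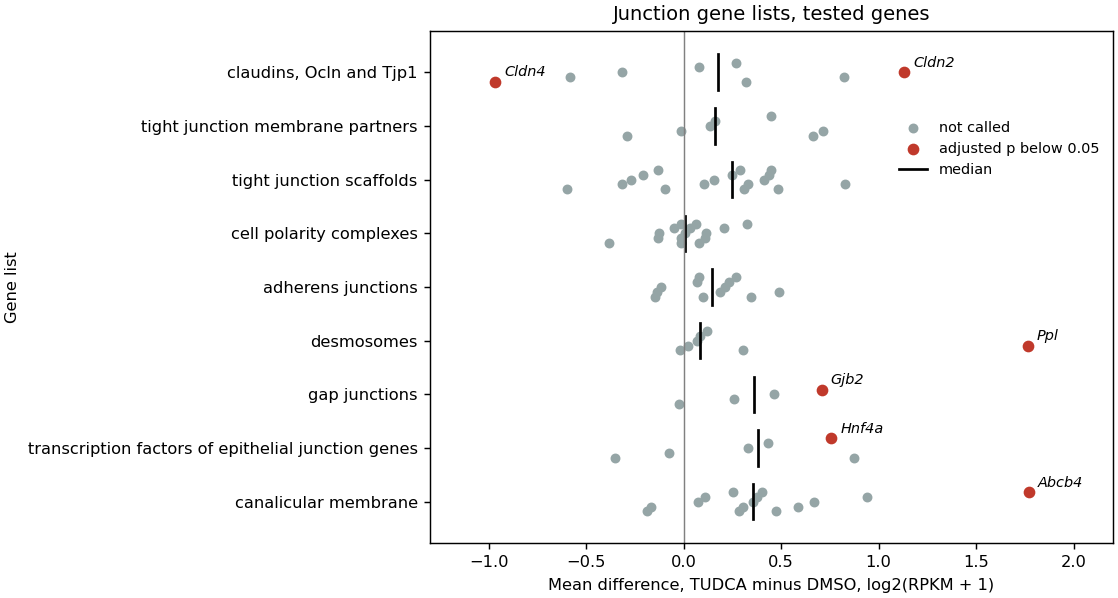
Mean difference of TUDCA minus DMSO on the log2(RPKM + 1) scale for each tested gene of the claudin set and of 8 junction lists, with genes past the test in red and the list median as a bar. Cldn2 and Cldn4 lie at opposite ends of their row, and the other red points are Ppl, Gjb2, Hnf4a and Abcb4.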

How the data were processed

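The authors deposited RPKM values, 1 table per library with 37620 Ensembl gene identifiers. HTSeq, TopHat2 2.0.7, Bowtie2 and CASAVA are listed, without roles, in the submitters' processing notes. The genome build, the annotation, the gene lengths and strandedness were not given in the sources used here. Symbols came from GENCODE M21 and matched 32897 identifiers. Promoter sequences came from RefSeq (GRCm38.p6), and all 10 genes were in that table. The motifs were chosen with the sequences in view.

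Ratios of RPKM between libraries gave totals of 9757547 and 10575699 reads for TUDCA replicates 1 and 2 and 10774289 for DMSO. For each of the 19146 genes above 0, the smallest length that gives whole reads (within 1e-09 reads, or rounding error for large counts) was taken. True reads may be a multiple, so intervals are the widest that fit.

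Values were tested as log2(RPKM + 1) with limma 3.58.1 in R 4.3.3 (lmFit, eBayes with a variance trend), for genes that averaged 1 RPKM or more, with Benjamini-Hochberg adjustment. Fold changes of low genes are understated on this scale. The DMSO library has no replicate. The p-values rest on the spread between 2 TUDCA libraries, pooled over genes of like level, and this spread may be technical. A gene's own spread between these libraries had no weight in the main fit. Voom served as an alternative. Genes named in the text were taken from all 10 genes, other claudins with a mean of at least 0.1 RPKM and, per junction list, each called gene and up to 4 with the largest differences. The genes and lists were chosen with earlier results of these data known.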

Additional observations from a re-analysis of the deposited data

How the results depend on the processing

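In 11 alternatives the filter was dropped or set at 5 RPKM, the pseudocount was 0.1, values were rescaled to TPM, centred on the median or quantile normalized, limma had no trend or was robust, voom was used, or a TUDCA library was left out. In the main fit limma called 299 of the 11300 genes tested (2.65%) and 2 of the 8 described genes that were tested. Without the filter it called 0 and 0 (1696 of 19146 genes, and 2 of the 10, at an unadjusted p below 0.05). The cause was not tested. No called gene named in the text passed without the filter. A log2 difference of at least 1 in both TUDCA libraries was reached by 119 genes, by 225 with a pseudocount of 0.1, by 237 with voom, and by 188 and 284 when a single TUDCA library was set against DMSO. Of the genes described, that rule took in Cldn2 alone. With median centring or without TUDCA replicate 1 it also took in Cldn4. Without TUDCA replicate 2 it took in Cldn1 (1.03) beside Cldn2, and not Cldn4 (-0.90). With 1 library per group no test was made. Over all alternatives the difference of Cldn2 ranged from 1.05 to 1.22 and that of Cldn4 from -1.04 to -0.90. Cldn12 ran from -0.05 to 0.21, below 0 without TUDCA replicate 1. Of the endothelial markers, Eng was at 0.01, and at -0.13 with quantile normalization and -0.065 with median centring. No paired analysis was possible because there was 1 DMSO library and its label carries no replicate number.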

Other observations

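Of 15 transcription factors known to act on epithelial junction genes, 6 were tested and 1 was called, where 2.65% of all genes tested were called. Hnf4a, which encodes a main regulator of hepatocyte identity and of junction genes, had 198.6 and 191.2 RPKM with TUDCA, against 115.0 RPKM with DMSO (log2 difference 0.76 ± 0.20, SE, limma adjusted p = 0.0123). With median centring, without the variance trend and without the filter it was not called (adjusted p = 0.153, 0.160 and 0.502). Elf3, an epithelial ETS factor, had 12.8 and 14.7 RPKM with TUDCA, against 7.01 RPKM with DMSO (limma adjusted p = 0.0508), and it was called with a pseudocount of 0.1 and with robust estimation (adjusted p = 0.0365 and 0.0439). Of the 6 tested, 4 lay above DMSO in both TUDCA libraries and 1 below it, against 40.5% and 30.4% of all genes tested. The 1 below was Klf5, with 3.04 and 2.86 RPKM with TUDCA, against 4.045 RPKM with DMSO, and it was not called. Grhl2, which was under the filter, had 0.301 and 0.278 RPKM with TUDCA, against 1.13 RPKM with DMSO. Zeb1 and Ovol1 were at 0 in all libraries.

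Of 15 genes of the canalicular membrane, which tight junctions border, 1 was called higher and 14 were not called, where 2.65% of all genes tested were called. The gene called was Abcb4, the phospholipid transporter of bile, with 103.9 and 116.5 RPKM with TUDCA, against 31.6 RPKM with DMSO. Its log2 difference was 1.77 ± 0.22 (SE, limma adjusted p = 2.5e-13). Both TUDCA libraries lay above DMSO for 10 of the 15 genes and below it for 2, against 40.5% and 30.4% of all genes tested. The median log2 difference of the 15 genes was 0.36, against 0.04 over all genes tested. Abcc2, an exporter of conjugates into bile, had 290.0 and 217.1 RPKM with TUDCA, against 167.1 RPKM with DMSO (limma adjusted p = 0.106). It was called with quantile normalization only (limma adjusted p = 0.0457). The sterol transporter genes Abcg5 and Abcg8 had 1.90 and 4.00 RPKM, and 3.10 and 3.74 RPKM, with TUDCA, against 0.981 and 1.77 RPKM with DMSO. Abcg5 was called without the variance trend only (limma adjusted p = 0.0326, against 0.0828 in the main fit).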
